A study of Mus musculus with 24 samples.

Results

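Oxidative phosphorylation is carried out by large protein complexes of the inner mitochondrial membrane whose subunits are encoded in both the nucleus and the mitochondrial genome. Complex I (NADH dehydrogenase), complex III (ubiquinol-cytochrome c reductase) and complex IV (cytochrome c oxidase) pump protons, and complex V (ATP synthase) uses the gradient to make ATP. Macrophages that meet lipopolysaccharide (LPS), which bacteria carry and TLR4 senses, are known to lower respiration and to rely more on glycolysis. The genes followed here are those of a mouse count table that map to protein-coding symbols beginning with mt-Nd, mt-Co, mt-Atp or mt-Cytb, with Nduf followed by a, b, c, s or v and a number, with Uqcr, with Cox4 to Cox8, or with Atp5. They are 94 of 56941 rows. The mitochondrial genome encodes 13 of them and the nucleus 81 (80 distinct symbols, since Atp5o has 2 gene IDs, 1 of them without a count). By complex the nuclear set holds 37 genes of complex I, 8 of complex III, 18 of complex IV and 18 of complex V, following their names. Of the 94 genes 85 passed the count filter and were tested: 74 nuclear and 11 mitochondrial. The name pattern misses some subunits (Cyc1, Ndufab1 and Usmg5) and the ATP synthase inhibitor Atpif1. It takes in Ndufa4, now placed in complex IV, among the complex I names. The gene Ndufb1-ps matches the pattern but is annotated as a non-coding RNA, not as protein-coding, and was left out.

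The cells were bone marrow-derived macrophages (BMDM) grown from mouse marrow in L929-conditioned medium, of 3 genotypes: wild type (WT), HDAC9 knockout (KO) and HDAC9 deltaCIS (dCIS), which lacks a cis-regulatory element of that gene. Each genotype was left untreated or given LPS at 100 ng/ml for 6 hours, both in serum-free medium, with 4 libraries in each of the 6 groups. HDAC9 is a class IIa histone deacetylase, and the study's title concerns control of its expression by this element in inflammation that depends on inflammasomes. Strain, sex and age of the mice and the extent of the deletions are absent from the descriptions used here, which also do not tell whether a group's 4 libraries are separate mice, so p-values measure the spread between these libraries only, which may be technical. Total counts per library ranged from 14636058 to 19181707. Hdac9 was at 0.841 to 1.31 CPM (counts scaled by effective library size) in untreated KO libraries against 9.15 to 12.4 in untreated WT, and at 0.0898 to 0.464 against 10.4 to 16.5 after LPS; in dCIS it was at 13.0 to 17.9 untreated and 9.89 to 21.2 after LPS, not below WT.

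The cells carried macrophage markers: the summed level of 8 such genes lay between 15529 and 26704 CPM in all libraries. Markers of lymphocytes and erythroid cells summed to at most 0.699 CPM, those of dendritic cells to at most 3.54, those of neutrophils to at most 4.67 (Ly6g at 0 counts) and those of osteoclasts to at most 20.0. Of 9 genes listed for fibroblasts and endothelial cells, the 4 that were tested (Pdgfrb, Pecam1, Cdh5 and Kdr) rose after LPS in WT, and the summed level of the list went from 2.93 to 5.57 CPM in untreated WT to 48.5 to 62.9 after LPS, with Col3a1 at 0 counts in all libraries; the part of this in the results below was not tested. The dCIS libraries 3 and 4 after LPS stand apart, with 17628 and 15997 genes detected against at least 20458 in the others, and the untreated dCIS library 3 stands apart in the sums given below.

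The nuclear genome holds old copies of mitochondrial DNA that are annotated as pseudogenes, and some share the sequence of the 13 mitochondrial genes. The first 90 bases of mt-Atp6, a subunit of the membrane part of ATP synthase, and of the chromosome 1 pseudogene Gm10925 are shown because they are the same base for base (GRCm38, chrM:7927-8016 on the plus strand and chr1:24614562-24614651 on the minus strand).
mt-Atp6: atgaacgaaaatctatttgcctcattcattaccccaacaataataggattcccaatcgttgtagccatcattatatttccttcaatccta
Gm10925: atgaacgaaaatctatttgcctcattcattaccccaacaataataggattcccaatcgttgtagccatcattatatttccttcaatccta
The first 90 bases of mt-Co1, the catalytic subunit of complex IV, and of its chromosome 2 copy Gm13340 are shown for contrast, with their 3 differing bases in capitals (GRCm38, chrM:5328-5417 on the plus strand and chr2:22589558-22589647 on the minus strand).
mt-Co1: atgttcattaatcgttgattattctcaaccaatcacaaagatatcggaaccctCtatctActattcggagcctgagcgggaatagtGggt
Gm13340: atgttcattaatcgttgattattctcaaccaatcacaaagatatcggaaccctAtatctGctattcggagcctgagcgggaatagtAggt
The whole 678 aligned bases of mt-Atp6 and Gm10925 are identical, as are the 681 of mt-Co2 and Gm28661, the 783 of mt-Co3 and Gm28437, and the 294 of mt-Nd4l and Gm10222. An identical stretch of 876 bases joins mt-Nd4, which is 1378 bases long, and Gm28439. With 1 mismatch each, mt-Nd3 matches Gm28438 over 345 bases and mt-Co1 matches a shorter copy, Gm29216, over 483. Over their full 1545 bases mt-Co1 and Gm13340 are 97.6% identical. No stretch of mt-Cytb (complex III), mt-Nd1 or mt-Nd6 as long as a read of 60 bases occurs in another annotated transcript.

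The counts of the 13 genes split along a similar line, with exceptions given below. In untreated WT cells the level per kilobase of transcript was 2674 ± 700 CPM (SD, n = 4) for mt-Co1, 1811 ± 263 for mt-Nd1, 1793 ± 364 for mt-Cytb, 706 ± 81.4 for mt-Nd4, 610 ± 145 for mt-Nd5 and 534 ± 101 for mt-Nd2. The levels of mt-Nd1 and mt-Cytb overlapped, as did those of mt-Nd5 and mt-Nd2. By contrast mt-Co2 stood at 1.50 ± 0.497 CPM per kilobase, mt-Atp6 at 0.868 ± 0.453 and mt-Co3 at 0.480 ± 0.313, although mt-Co2 and mt-Co3 encode the other core subunits of complex IV and all of these are known as abundant mRNAs. Over all 24 libraries mt-Co2 received 334 counts, mt-Atp6 270, mt-Co3 193, mt-Atp8 50 and mt-Nd4l 30, while the identical copies Gm28661, Gm10925 and Gm28437 received 20420, 15544 and 14733. Of the 60-base windows of mt-Co2, 100% occur in another annotated transcript, of mt-Atp6 99.5%, of mt-Co3 99.9% and of mt-Nd4l 98.7%. The same share was 46.5% for mt-Co1, 61.9% for mt-Nd4, 7.15% for mt-Nd2 and 4.42% for mt-Nd5. With an identical copy of 876 of its bases, mt-Nd4 still received 418395 counts. The genes mt-Nd3 and mt-Atp8 leave this pattern: mt-Nd3 had 97.9% shared windows and 21017 counts, and mt-Atp8 shared none with an annotated transcript, lying opposite a gap of 233 bases between the annotated copies on chromosome 1. How reads that match several places were counted is not given in the sources used here. The effect of the copies on the counts was therefore not tested. Levels of mt-Co2, mt-Atp6, mt-Co3, mt-Atp8 and mt-Nd4l cannot be read as expression. Those of mt-Nd3, mt-Nd4 and mt-Co1, which share many windows, are also uncertain. Reads of mt-Nd6, which lies on the opposite strand, and of the overlapping pairs mt-Atp8 with mt-Atp6 and mt-Nd4l with mt-Nd4 are also uncertain, since the strand setting is not given.

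**Figure D1:**
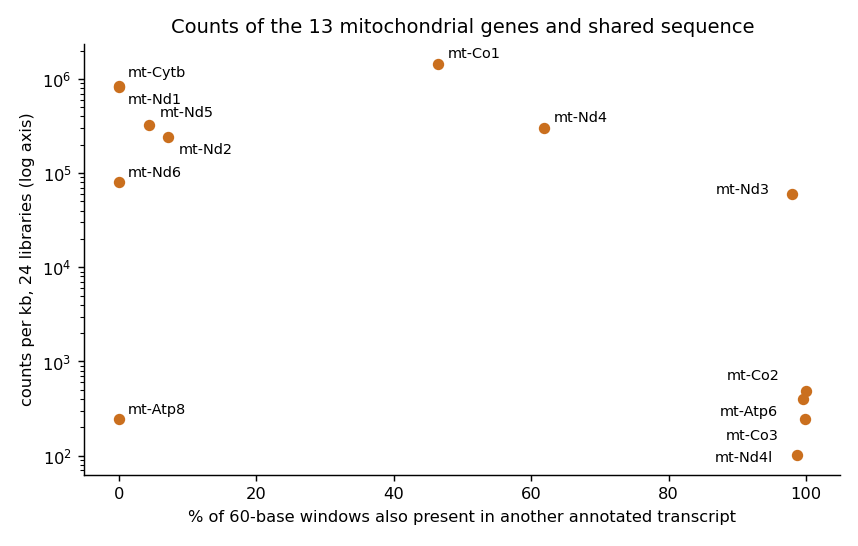
Each point is 1 of the 13 mitochondrial protein genes; the horizontal axis gives the share of its 60-base windows that also occur in another annotated transcript (%), the vertical axis its counts per kilobase summed over 24 libraries (log axis). The genes mt-Co2, mt-Atp6, mt-Co3 and mt-Nd4l, with at least 98.7% shared windows, lie at the bottom right, and mt-Atp8 and mt-Nd3 lie off that pattern.

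Among the nuclear subunits of untreated WT cells the highest levels per kilobase belonged to Cox4i1, 337 ± 12.9 CPM (SD, n = 4), Cox6b1, 253 ± 14.2, Atp5b, 246 ± 12.5, and Cox6a1, 245 ± 22.7. Cox6b1, Atp5b and Cox6a1 did not differ beyond their spread. Several subunits of complex IV have tissue isoforms. Cox4i1, Cox6a1, Cox6b1, Cox7a2 and Cox8a, the forms of most tissues, had group means of at least 48.0 CPM in all 6 groups, while the lung and hypoxia form Cox4i2 and the testis form Cox6b2 received 43 and 20 counts in all 24 libraries, Cox7b2 received 2, and Cox8b and Cox8c received 0. Of the heart and muscle forms, Cox7a1 lay between 0.679 and 1.77 CPM in untreated WT and Cox6a2 between 8.41 and 16.3. The 7 nuclear genes that were not tested are Cox4i2, Cox6b2, Cox7b2, Cox8b, Cox8c, Ndufa4l2 and the Atp5o ID without counts.

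The 13 mitochondrial genes together took 1.23 to 1.89% of the counts of an untreated WT library and the 81 nuclear genes 0.681 to 0.770%. Wilson 95% intervals of these shares, which cover counting error only, reach at most 0.00736 percentage points to either side for the mitochondrial share and 0.00487 for the nuclear share. Untreated KO libraries had more mitochondrial counts, 1.83 to 2.37%, and fewer nuclear ones, 0.545 to 0.598%, so that the ratio of the first to the second was 3.29 to 3.97 in KO against 1.59 to 2.65 in WT, without overlap. The mitochondrial shares alone overlapped, KO library 1 at 1.83% lying below WT library 1 at 1.89%. The log2 difference between short and long genes, defined below, also separated these groups. It was -0.515 to -0.373 in untreated KO and 0.0944 to 0.392 in untreated WT, and 0.935 in untreated dCIS library 3. The part of transcript length in the ratio was not tested. After LPS the ratios overlapped, at 2.85 to 3.54 in KO and 1.63 to 3.13 in WT. Untreated dCIS libraries spread widely, from 0.725 to 2.49: library 3 had the lowest mitochondrial share of all 24, 0.705%, and the highest nuclear share, 0.972%. In these bulk libraries fewer cells and less RNA per cell cannot be told apart. After LPS the median of both shares was lower in each genotype, as a part of all counts and without further scaling. The nuclear share was 0.452 to 0.552% in WT, 0.361 to 0.428% in KO and 0.398 to 0.491% in dCIS, in each case below all untreated libraries of the genotype. The mitochondrial share was 0.880 to 1.42% in WT, 1.03 to 1.52% in KO and 0.922 to 1.32% in dCIS, overlapping untreated libraries in WT and dCIS but not in KO. The mean log2 ratio of the 2 sums changed with LPS by 0.10 in WT and -0.09 in KO, within the SD between libraries of a group (0.38 and 0.13 pooled over both groups). In dCIS it changed by 0.69 with a pooled SD of 0.61, and by 0.33 without the untreated library 3. Between libraries of the same number it changed by -0.37, 0.12, -0.01 and 0.65 in WT and by 0.10, -0.30, 0.003 and -0.17 in KO, in both directions. In dCIS, where the numbers did not meet the criterion for pairing, it changed by 0.49, 0.34, 1.40 and 0.54, higher in 4 of 4.

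**Figure D2:**
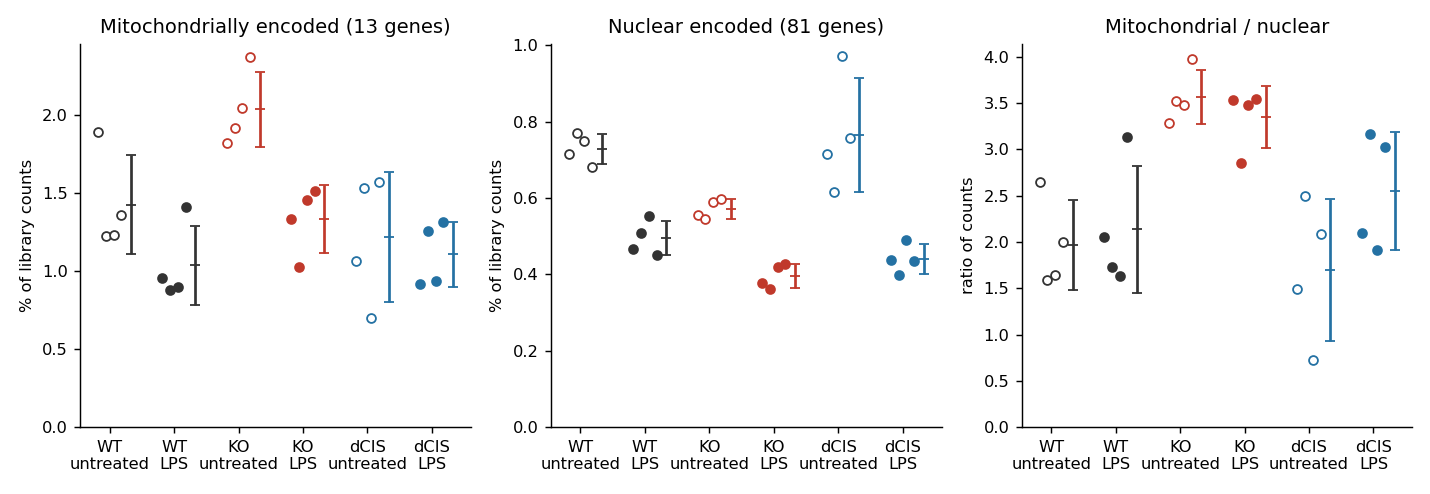
Share of library counts (%) of the 13 mitochondrial and 81 nuclear genes, and the ratio of the 2 sums, in each of 24 libraries; open points are untreated, filled points LPS, and bars give the mean and SD of 4 libraries. Untreated KO libraries have ratios of 3.29 to 3.97, above the 1.59 to 2.65 of untreated WT, and the nuclear share is lower after LPS in all genotypes. The part of transcript length in the ratio was not tested.

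How the LPS response reads depends on the scaling. TMM scaling, which assumes that most genes do not change, was used for CPM and fold changes. With total counts and no scaling the median of all tested genes moves with LPS by -0.80 (log2) in WT, -0.80 in KO and -0.81 in dCIS, and 2067 genes are called higher and 9525 lower in WT; every rise given below is relative to the bulk of genes on the TMM scale. Genes with an adjusted p below 0.05 are termed called (edgeR's quasi-likelihood test, Benjamini-Hochberg over 14757 genes), and fold changes are log2 values with their standard error (SE).

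In WT macrophages after LPS, calls among the nuclear subunits were mostly higher on this scale, and most of complex I had no call. No mitochondrial gene was called in the main fit, which did not pair libraries, and 5 were called higher with pairing by replicate number. Other alternatives given below also changed this count. Of 74 nuclear subunits 22 were called higher and 4 lower (with total counts 0 and 69, without the count filter 7 and 8, with offsets for transcript length 20 and 9, and with DESeq2 20 and 7). Among all genes 61.4% were called, 30.4% higher and 31% lower. The share of nuclear subunits called higher, 29.7%, was near that of all genes, the share called lower, 5.41%, was below it, and their median change was 0.14 (log2) against 0.00 for all genes. Complex IV had 8 of 13 higher and 1 lower, complex III 4 of 8 higher, complex V 6 of 17 higher and 1 lower, and complex I 4 of 36 higher and 2 lower. Of the 11 tested mitochondrial genes 0 were called, with a median of 0.24 (0 at an unadjusted p under 0.05, 0 with DESeq2, and 6 lower with total counts). The 11 include mt-Co2, mt-Atp6 and mt-Co3; without these 3, the number called and the number at an unadjusted p under 0.05 were the same in all 9 comparisons, and the medians of the other 8 after LPS were 0.26 in WT, 0.12 in KO and 0.41 in dCIS. With the replicate number as a block within the genotype 5 mitochondrial genes were called higher, and the nuclear calls were 26 higher and 6 lower.

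Within complex I the largest rise was that of Ndufs4, an accessory subunit of the NADH-binding module. Its level was 40.4, 40.4, 37.9 and 34.2 CPM in the untreated WT libraries and 63.8, 71.3, 75.0 and 61.7 after LPS, a log2 change of 0.83 ± 0.14 (SE; adjusted p = 1.1e-05). The groups do not overlap, nor do they in KO, where the change was 0.91 ± 0.14. Ndufs3, a core subunit of the peripheral arm, rose by 0.54 ± 0.14 and Ndufa1, a small membrane subunit, by 0.34 ± 0.11. In the opposite direction, Ndufa6 of the peripheral arm fell from 56.7, 64.2, 66.7 and 64.7 CPM to 44.7, 50.3, 55.7 and 42.6, a change of -0.38 ± 0.12 (adjusted p = 0.0063), and Ndufb10 of the membrane arm by -0.30 ± 0.12. So subunits of a single complex moved in both directions, and all Ndufa6 values after LPS lie below all untreated ones.

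Of the other complexes, Uqcrfs1, the Rieske iron-sulfur protein of complex III, was at 40.3, 48.6, 46.2 and 47.3 CPM untreated and at 69.6, 76.1, 76.8 and 71.2 after LPS in WT (0.69 ± 0.10, adjusted p = 7.1e-07). The hinge protein Uqcrh rose by 0.43 ± 0.14 and the core protein Uqcrc2 by 0.34 ± 0.09. In complex IV, Cox5a, which surrounds the catalytic core, went from 123, 167, 161 and 161 CPM to 206, 231, 275 and 224 (0.61 ± 0.15, adjusted p = 0.0012). Cox7a2 rose by 0.46 ± 0.14 and Cox6b1 by 0.43 ± 0.09, while Cox7a2l, which helps to join complex III to complex IV, fell by 0.34 on the log2 scale (SE 0.13). In complex V, Atp5f1, a stalk subunit, went from 120, 135, 141 and 122 CPM to 197, 211, 218 and 183 (0.65 ± 0.10, adjusted p = 4.8e-06), and the catalytic head subunits Atp5b and Atp5a1 rose by 0.53 ± 0.11 and 0.46 ± 0.08. The libraries of both groups are separate for each of Uqcrfs1, Cox5a and Atp5f1. The largest fall of any nuclear subunit was that of Atp5s, named as a coupling factor of complex V, but at low level: 3.63 to 4.18 CPM untreated and 0.806 to 1.47 after LPS (-1.63 ± 0.28, adjusted p = 9.3e-06); it lies under the minimum level for naming and was chosen after its values were seen.

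The KO macrophages gave 24 nuclear subunits higher and 4 lower after LPS (total counts 0 and 67, no filter 10 and 9, compared groups alone 23 and 9, length offsets 20 and 10), where 61.6% of all genes were called, 30.9% higher and 30.7% lower; 0 of 11 mitochondrial genes were called (0 at an unadjusted p under 0.05, 0 with DESeq2). In dCIS the split was the other way: 8 higher and 28 lower (total counts 0 and 74, no filter 1 and 38, compared groups alone 6 and 15, length offsets 13 and 30), where 64.7% of all genes were called, 31.3% higher and 33.3% lower. Without the dCIS libraries 3 and 4 after LPS it was 7 and 19, and without the untreated library 3 it was 11 and 23. Complex I had 18 of its 36 tested subunits lower and 2 higher in dCIS, complex III 2 and 2, complex IV 3 lower and 1 higher, and complex V 5 lower and 3 higher. The nuclear median was -0.24 in dCIS against -0.05 for all genes, and 0.21 in KO against 0.02. In dCIS 37.8% of nuclear subunits were called lower, near the 33.3% of all genes, and 10.8% higher, below the 31.3%. In KO 32.4% were called higher, near the 30.9% of all genes, and 5.41% lower, below the 30.7%.

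Gene by gene, 8 nuclear subunits were called higher in all 3 genotypes: Ndufs3, Ndufs4, Uqcrfs1, Uqcrc2, Cox6b1, Atp5a1, Atp5b and Atp5f1. Called lower in all 3 were Ndufa6, Cox7a2l and Atp5s. Several of these calls were lost in alternatives. Among them were Ndufs4 (6 alternatives) and Ndufs3 (5) in dCIS, Ndufa6 (5) in KO, and Cox7a2l in KO (5) and WT (4). A further 12 were called higher in WT and KO and in neither direction in dCIS, among them Cox4i1, Cox5a and Cox8a, and 22 were called lower in dCIS alone, among them Ndufs7, Ndufs8, Uqcr10, Uqcr11 and Atp5l. The call of Cox4i1 in WT was lost in 11 alternatives and that of Uqcr10 in dCIS in 8. Cox6c, a small subunit of complex IV, was called in opposite directions: 64.9, 74.2, 67.5 and 64.5 CPM became 85.7, 90.8, 98.7 and 73.5 in WT (0.36 ± 0.14, adjusted p = 0.027; lost in 9 alternatives, with adjusted p from 0.051 to 0.28, among them DESeq2, the length offset and leaving out untreated library 1, 3 or 4 or LPS library 2 or 3), whereas 67.8, 56.3, 93.2 and 79.4 became 67.9, 63.9, 44.5 and 46.4 in dCIS (-0.41 ± 0.14, adjusted p = 0.012). The 2 lowest of these are the dCIS libraries 3 and 4, and without both the change was -0.17 (adjusted p = 0.34). Of all genes, 61.4% were called in WT, 61.6% in KO and 64.7% in dCIS. The share of all genes with each of these patterns was not determined, so the counts are not set against a background. These are differences in calls, and the test of the difference itself is given next.

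The difference of the LPS response between dCIS and WT passed for 0 of 74 nuclear and 0 of 11 mitochondrial genes, with 0% of all genes called by edgeR; 25 nuclear and 0 mitochondrial genes had an unadjusted p under 0.05, and DESeq2 called 0 of either set. The nuclear median difference was -0.30, with 70 of 74 negative, and for Cox6c it was -0.78 ± 0.20 (adjusted p = 0.36). Other short genes shifted in the same direction. Subunits of up to 600 bases had a median difference of -0.44, other protein-coding genes of that length -0.38 and those over 5000 bases 0.14. The part of length in this difference was not tested. Between KO and WT the response differed for 0 and 0 genes as well, where 0.0203% of all genes were called, 0.0136% higher and 0.00678% lower; 0 and 0 had an unadjusted p under 0.05, DESeq2 called 0 and 0, and the nuclear median was 0.04.

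**Figure D3:**
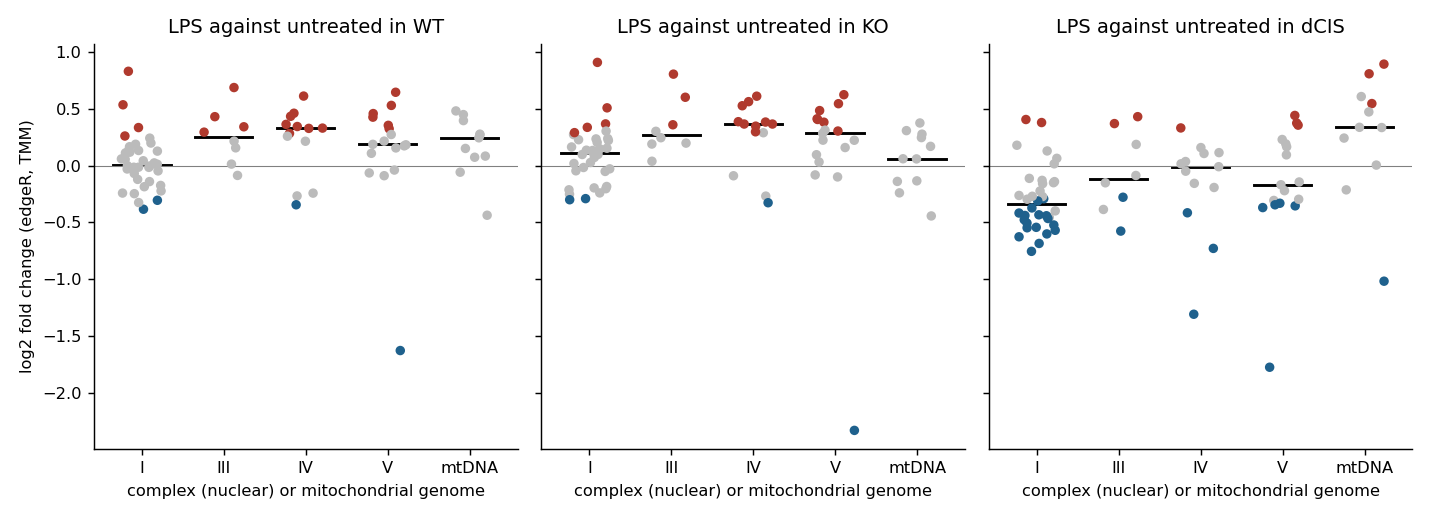
Each point is the log2 fold change of 1 tested gene after LPS in WT, KO and dCIS (edgeR, TMM scale), by complex for the nuclear subunits and together for the 11 mitochondrial genes; red is called higher, blue called lower, grey not called, and the bar is the median. Complex IV has 8 red points in WT and 1 in dCIS, and complex I 2 blue points in WT and 18 in dCIS.

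In dCIS 3 of 11 mitochondrial genes were called higher after LPS and 1 lower, 36.4% in all, against 64.7% of all genes. mt-Nd5, a proton-pumping subunit of complex I, was at 797, 1167, 373 and 1101 CPM untreated and 1439, 2155, 1112 and 1680 after LPS (0.89 ± 0.26, adjusted p = 0.0042). mt-Co1 was at 3180, 4998, 1913 and 4754 CPM and then at 5329, 8093, 5206 and 7369 (0.81 ± 0.24, adjusted p = 0.0046), without overlap. mt-Cytb rose by 0.55 ± 0.18 (adjusted p = 0.010). In all of them the untreated library 3 is the lowest; without it the changes were 0.54, 0.49 and 0.29, and mt-Cytb was no longer called (adjusted p = 0.14). With total counts mt-Nd5, mt-Co1 and mt-Cytb changed by 0.12, 0.04 and -0.22 and none of them was called.

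mt-Nd3, a short subunit of complex I, was called lower in dCIS after LPS (-1.02 ± 0.40, adjusted p = 0.031; 0.061 with DESeq2 and 0.16 on the compared groups alone). Its untreated values were 40.1, 46.0, 34.6 and 60.5 CPM and those after LPS 41.0, 39.0, 2.71 and 7.20. The fall is that of libraries 3 and 4: without both the change was -0.18 (adjusted p = 0.40). In all other 22 libraries mt-Nd3 lay between 34.6 and 72.6 CPM. Without the untreated library 4, or without only LPS library 3 or only LPS library 4, it was also not called (adjusted p = 0.096, 0.070 and 0.12). In the same libraries 3 and 4 mt-Nd6 was at 158 and 275 CPM, against 51.6 to 148 in all others. Of the 60-base windows of mt-Nd3, 97.9% also occur in another annotated transcript, and the part of the copies in its values was not tested.

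The Ndufa4 family showed the largest LPS change near these complexes. AA467197, a paralog of Ndufa4 that the name pattern leaves out and that is known to take the place of NDUFA4 in complex IV of inflamed cells, was at 1.25, 0.885, 0.715 and 0.630 CPM in untreated WT and at 166, 167, 155 and 138 after LPS, 7.47 ± 0.22 on the log2 scale (adjusted p = 1.7e-20). In KO it reached 112, 110, 116 and 108 CPM and in dCIS 117, 102, 72.7 and 74.8, all below every WT library. After LPS the difference from WT was -0.77 ± 0.14 in dCIS (adjusted p = 0.0091) and -0.49 ± 0.14 in KO (adjusted p = 0.055); without the dCIS libraries 3 and 4 the first was -0.52 (adjusted p = 0.30), and it was also not called without WT library 2 (0.050) or dCIS library 3 (0.055). Ndufa4 itself went from 61.2 to 68.9 CPM to 68.2 to 81.2 in WT (0.19 ± 0.15, adjusted p = 0.27) and was called higher in KO (0.34 ± 0.15, adjusted p = 0.049), a call lost in 14 alternatives (adjusted p from 0.055 to 0.56), among them the replicate block within the genotype, DESeq2, the length offset, and leaving out any untreated KO library or KO library 3 or 4 after LPS. Ndufa4l2, the hypoxia-linked member of the family, received 6 counts in all libraries.

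**Figure D4:**
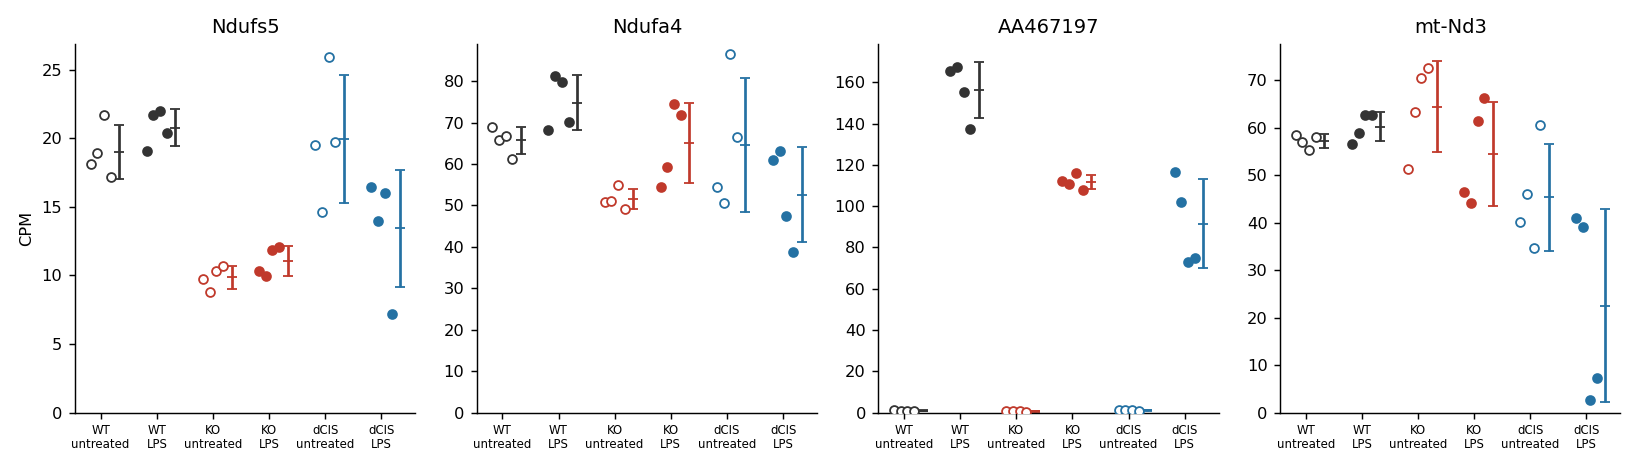
Level in CPM of Ndufs5, Ndufa4, AA467197 and mt-Nd3 in each of 24 libraries; open points are untreated, filled points LPS, and bars give the mean and SD of 4 libraries. Ndufs5 is lower in all KO libraries than in all WT libraries, AA467197 rises with LPS in every genotype, and mt-Nd3 drops to 2.71 and 7.20 CPM in 2 dCIS libraries.

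Without LPS, nuclear subunits of all 4 complexes were at lower levels in KO macrophages than in WT, as were other short genes. Of 74 tested, 26 were called lower and 0 higher, against 7.31% of all genes called, 5.03% higher and 2.28% lower. The median was -0.38 and 73 of 74 were negative. Of the calls, 14 were in complex I, 4 in complex III, 5 in complex IV and 3 in complex V. Other protein-coding genes of up to 600 bases had 22.2% called lower, and those of 601 to 800 bases 15.2%. For nuclear subunits of these lengths it was 15 of 24 and 7 of 15. The mitochondrial genes went the other way without a call: 0 of 11 called (5 at an unadjusted p under 0.05, and 3 higher with DESeq2), 9 of 11 positive, median 0.40, and 7 of 8 positive with a median of 0.41 without mt-Co2, mt-Atp6 and mt-Co3. The largest were mt-Nd5 at 0.82 ± 0.26 (adjusted p = 0.054) and mt-Co1 at 0.69 ± 0.24 (adjusted p = 0.070), each without overlap between the groups.

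Ndufs5, a small accessory subunit on the intermembrane side of complex I, had the largest difference. It was at 18.1, 19.0, 21.7 and 17.2 CPM in untreated WT and at 9.73, 8.76, 10.3 and 10.7 in KO, -0.95 ± 0.18 on the log2 scale (adjusted p = 0.0047). Both groups are separate, and they are again after LPS, at 19.0, 21.7, 22.0 and 20.4 against 10.3, 9.97, 11.9 and 12.0 CPM (-0.91 ± 0.18, adjusted p = 0.0081). Uqcr11, a small subunit of complex III, was at 52.8, 52.2, 53.6 and 48.6 CPM in WT and 31.1, 33.6, 30.1 and 37.1 in KO (-0.65 ± 0.16, adjusted p = 0.020). Ndufb9, Uqcr10, Ndufa6 and Ndufa1 were lower by -0.54 ± 0.13, -0.49 ± 0.12, -0.47 ± 0.12 and -0.46 ± 0.11, all without overlap. At the other end, the ATP synthase head subunits Atp5a1 and Atp5b differed by 0.01 ± 0.08 and -0.08 ± 0.11 and were not called.

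The number of nuclear calls in untreated KO against WT depends on single libraries, as does that of all genes, and moves with transcript length. Without WT library 2 or 3, or KO library 1, it was 1, without KO library 3 it was 2, without KO library 4 it was 9, without WT library 1 it was 12 and without KO library 2 it was 16; fitted on the compared groups alone it was 52, with a replicate block over all groups 42, and with DESeq2 36. Calls among all genes moved too, from 1079 to 90 without WT library 2 and 126 without WT library 3. They were 209, 233 and 951 without KO library 1, KO library 3 and WT library 4. Compared groups alone gave 2351, the block 1973 and DESeq2 2164. Nuclear subunits have short mRNAs, with a median of 752 bases among those tested against 2840 for all tested protein-coding genes. In the same comparison other protein-coding genes of up to 600 bases had a median of -0.34, those over 1000 and up to 1500 bases -0.23, and those over 5000 bases 0.34. The subunits of up to 600 bases had a median of -0.47, and in the next bins, up to 800, 1000, 1500 and 2000 bases, the medians were -0.46, -0.37, -0.31 and -0.29. The difference between short genes (under 800 bases, without the subunits) and long genes (over 5000 bases), as the median of their log2 deviations in a library, was -0.515 to -0.373 in untreated KO libraries, 0.0944 to 0.392 in untreated WT and -0.192 to 0.935 in untreated dCIS, the last value in library 3. With an offset for the length trend of all genes, chosen after seeing the data, 1 nuclear subunit stayed called, Ndufs5 (-0.68, adjusted p = 0.011), the nuclear median was -0.17 and that of the mitochondrial genes 0.58. KO genotype and this length trend cannot be told apart in these libraries.

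**Figure D5:**
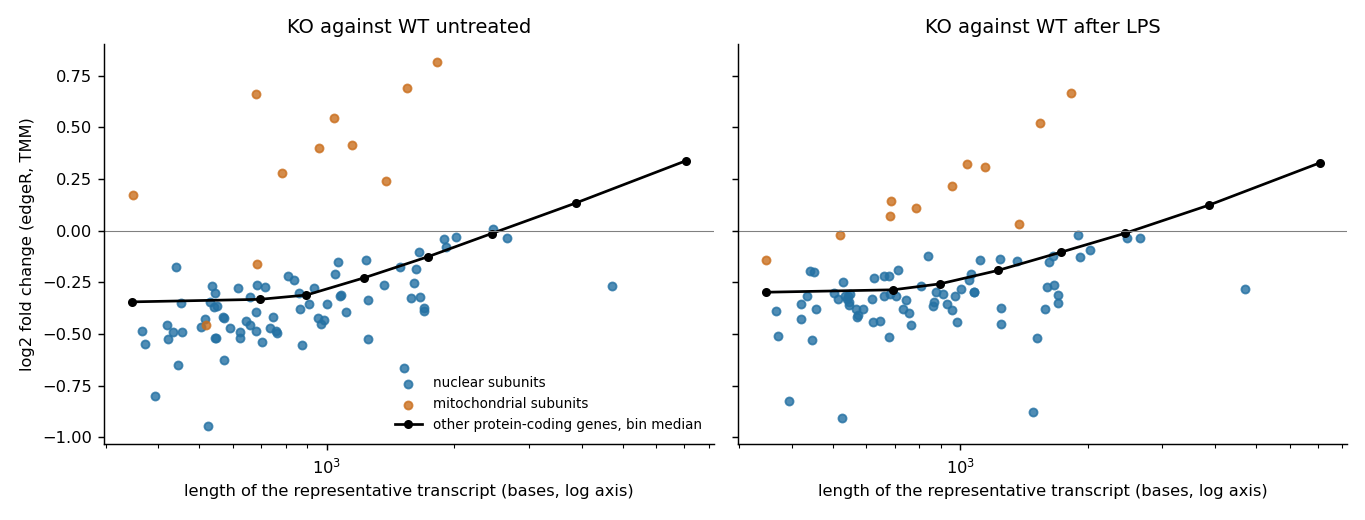
Log2 fold change of KO against WT, untreated and after LPS (edgeR, TMM scale), against the length of the representative transcript in bases (log axis); blue points are nuclear subunits, orange points mitochondrial genes, and the black line joins the medians of all other tested protein-coding genes in 8 length bins. Short genes lie lower than long ones in both panels, most nuclear subunits follow or lie under the line, and mt-Nd5 (0.82 and 0.67) lies above it.

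After LPS the KO cells had 3 nuclear subunits lower than WT and 0 higher, where 2.74% of all genes were called, 2.31% higher and 0.434% lower. They are Ndufs5, Ndufa1 (-0.43 ± 0.11, adjusted p = 0.038) and Ndufs8, a core iron-sulfur subunit of complex I (47.6, 53.7, 53.7 and 43.9 CPM in WT, 34.3, 39.2, 35.4 and 37.5 in KO; -0.44 ± 0.12, adjusted p = 0.044). All 74 differences were negative, with a median of -0.32, and 0 of 11 mitochondrial genes were called (2 at an unadjusted p under 0.05, 0 with DESeq2). Leaving out any of WT libraries 1 to 3 or any KO library left 1 call, Ndufs5, and leaving out WT library 4 gave 5; the count was 44 on the compared groups alone, 19 with a block over all groups, 16 with DESeq2 and 1 with the length offset. Calls among all genes moved too, from 405 to 68 without WT library 3 and 455 without WT library 4. They were 1995 on the compared groups alone, 1058 with the block and 1093 with DESeq2. Medians of other genes ran from -0.30 (up to 600 bases) to 0.33 (over 5000 bases) here too.

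Against WT, dCIS cells had few calls among the subunits. Untreated, 0 of 74 nuclear and 0 of 11 mitochondrial genes were called (0 and 0 at an unadjusted p under 0.05, 0 and 0 with DESeq2), where 0.0542% of all genes were called, 0.00678% higher and 0.0474% lower. After LPS 1 nuclear subunit was called lower, Cox6c, at 85.7, 90.8, 98.7 and 73.5 CPM in WT and 67.9, 63.9, 44.5 and 46.4 in dCIS (-0.65 ± 0.14, adjusted p = 0.042), where 0.258% of all genes were called; the groups do not overlap. Without the dCIS libraries 3 and 4 the difference was -0.40 (adjusted p = 0.41), and it was not called without any one of WT libraries 1, 2 and 3 or dCIS library 3 or 4. Of the 74 differences 70 were negative with a median of -0.24, 33 had an unadjusted p under 0.05, and DESeq2 called 8. Length moved with this comparison too: subunits of up to 600 bases had a median of -0.35, other protein-coding genes of that length -0.32 and those over 5000 bases 0.09. Its part in the result was not tested, and with the length offset 0 subunits were called. Of the mitochondrial genes 0 were called (1 at an unadjusted p under 0.05, 0 with DESeq2).

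The promoters of 3 subunits that mark these patterns are given from RefSeq (GRCm38.p6, 250 bases before to 50 after the start): Ndufs4, the largest rise in complex I, Ndufa6, lower after LPS in all genotypes, and Ndufs5, the largest difference in KO. Capitals mark matches on either strand to letters bound by factors known for respiratory genes: NRF1, YY1 (AAGATGGCG) and NF-Y (CCAAT). For NRF1, here and in the shares below, the pattern left a base free, so its matches need not be palindromes.
Ndufs4 (chr13:114388045-114388344, minus strand): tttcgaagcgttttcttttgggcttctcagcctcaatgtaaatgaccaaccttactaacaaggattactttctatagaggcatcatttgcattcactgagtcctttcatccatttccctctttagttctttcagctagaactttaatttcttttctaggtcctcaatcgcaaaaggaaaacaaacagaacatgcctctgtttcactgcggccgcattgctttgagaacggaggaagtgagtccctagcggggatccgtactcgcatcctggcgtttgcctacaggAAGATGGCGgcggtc
Ndufa6 (chr15:82354242-82354541, minus strand): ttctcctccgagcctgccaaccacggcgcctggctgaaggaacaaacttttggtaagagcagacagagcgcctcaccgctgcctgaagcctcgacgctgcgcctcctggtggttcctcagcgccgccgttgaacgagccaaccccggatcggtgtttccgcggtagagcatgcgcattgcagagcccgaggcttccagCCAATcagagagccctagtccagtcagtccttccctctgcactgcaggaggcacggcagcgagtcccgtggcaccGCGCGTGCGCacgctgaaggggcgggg
Ndufs5 (chr4:123718137-123718436, minus strand): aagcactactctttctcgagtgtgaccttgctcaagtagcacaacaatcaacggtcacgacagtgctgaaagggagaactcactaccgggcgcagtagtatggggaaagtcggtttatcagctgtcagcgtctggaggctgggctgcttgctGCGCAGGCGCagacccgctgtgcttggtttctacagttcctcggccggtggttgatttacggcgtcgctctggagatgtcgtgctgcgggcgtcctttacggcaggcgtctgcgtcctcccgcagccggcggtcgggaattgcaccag
Of 80 nuclear symbols 63 had a promoter in the RefSeq table. The NRF1 letters occur in 23.8% of these against 7.44% of 16500 protein-coding genes, the ETS letters CCGGAAG in 22.2% against 13.4%, the YY1 letters in 11.1% against 2.25%, and CCAAT in 42.9% against 42.1%. Matches to ETS and YY1, or to YY1 and NRF1, can share bases. These shares describe letters in a window and say nothing of binding in these cells.

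Genes that build, supply or feed the complexes were taken from lists and read in the same fit. After LPS in WT their counts stand against 61.4% of all genes called, 30.4% higher and 31% lower, and several lists lie near or below it. After LPS in WT, 2 of 18 tested complex I assembly factors were called higher and 10 lower (median -0.51), with Tmem126b, a factor of the membrane arm, at -1.53 ± 0.12 (adjusted p = 3.2e-11). Of 28 assembly factors of complexes III and IV, 7 were higher and 10 lower, and Sco1, a copper chaperone of complex IV, rose by 2.97 ± 0.13 (adjusted p = 1.3e-16). The 4 subunits of complex II, all nuclear, had 2 higher and 0 lower, with Sdhd at 0.28 ± 0.10 (adjusted p = 0.013). Of 4 complex V assembly factors 1 was higher and 2 lower, Atpaf1 at -1.11 ± 0.20 (adjusted p = 2.1e-05).

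Of 28 genes for mitochondrial DNA replication and transcription 4 were higher and 12 lower, and Pnpt1, an RNA-degrading enzyme of mitochondria, rose by 2.54 ± 0.12 (adjusted p = 8.2e-16). The mitochondrial ribosome had 13 of 78 proteins higher and 22 lower, with Mrpl30 at 0.91 ± 0.09 (adjusted p = 2.4e-09). Among 14 electron carrier genes 4 were higher and 2 lower; Cycs, the cytochrome c that links complexes III and IV, went from 22.4 to 33.3 CPM to 99.6 to 114 (1.85 ± 0.17, adjusted p = 6.2e-10). Of 10 tested regulators 5 were higher and 4 lower, with Hif1a, the hypoxia-inducible factor, at 1.74 ± 0.13 (adjusted p = 1.6e-11), and of 4 tested carriers of ADP, phosphate or protons 2 were higher and 2 lower, with the ADP/ATP carrier Slc25a5 at 0.52 ± 0.11 (adjusted p = 0.00018). The other mitochondrially encoded RNAs had 2 of 12 higher and 0 lower, mt-Tv at 1.17 ± 0.36 (adjusted p = 0.0065).

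In KO against WT without LPS, the mitochondrial ribosome had 9 of 78 proteins lower and 0 higher with a median of -0.28, and assembly factors of complexes III and IV 4 of 28 lower and 0 higher, against 2.28% of all genes called lower. Other protein-coding genes of up to 600 bases, with a median of -0.34, had 22.2% called lower in this comparison, and the part of length in the list counts was not tested. The complex I assembly list, complex II, the replication and transcription list and the regulators each had 0 called by edgeR (2, 0, 1 and 3 at an unadjusted p under 0.05). The 5 listed genes that the name pattern or the biotype leaves out had 1 lower, with all 5 negative and a median of -0.28. The nuclear copies of mitochondrial genes had 0 of 9 called (3 at an unadjusted p under 0.05) with a median of 0.07, against 0.40 for the mitochondrial genes themselves. After LPS in WT 5 of these 9 copies were called higher, with a median of 0.37, where 61.4% of all genes were called and 30.4% higher.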

How the data were processed

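RNA of 24 bone marrow-derived macrophage samples (6 groups of 4) was captured on oligo-dT and sequenced as paired reads, per the labels' protocols. The authors deposited raw counts per Ensembl gene ID; reads were mapped to mm39 with STAR and edgeR was used, per the submitters' processing notes, while versions, counting program, strand setting and treatment of multi-mapping reads are not stated in the labels or notes. Total counts of 14636058 to 19181707 per library set the precision; Wilson 95% intervals of shares cover counting error only.

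Symbols, biotypes and transcript lengths came from GENCODE M21 (GRCm38), not the build of the counts, so coordinates are given only for sequences read from that build. One edgeR 4.0.16 quasi-likelihood fit (R 4.3.3) covered 24 libraries and 14757 genes passing filterByExpr (minimum count 10, minimum total 15), with TMM scaling and Benjamini-Hochberg adjustment over these genes at 0.05. Alternatives were DESeq2 1.42.0, RLE size factors, other filters, total counts, compared groups alone, replicate blocks, libraries left out and offsets for transcript length. The script was tested on simulated counts. Untreated and LPS libraries of the same number deviated together, each best with its own number. Correlations were 0.113 to 0.150 in WT, 0.155 to 0.296 in KO and 0.040 to 0.339 in dCIS. With a criterion of 0.1 for every pair, numbers were taken to pair libraries within WT and KO. The main fit, with its SE and adjusted p-values, still used group means without a block. Between genotypes, same-numbered untreated libraries reached 0.187 (WT with KO, number 1) and 0.157 (WT with dCIS, number 3). The size of the correlations alone therefore does not establish pairing.

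Genes named are all mitochondrial members, the called subunits of each complex with the largest rise or fall after LPS in WT (at least 5 CPM), those called between genotypes, tissue isoforms, and 1 gene per further list. Members and lists were chosen with earlier results of these data known.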

Additional observations from a re-analysis of the deposited data

Results flagged for a closer look

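Of 258 groups of 4 libraries examined, 13 held a library whose gap to the nearest other was too large a share of the group's range by Dixon's 95% criterion; chance gives about 1 in 20 groups. WT library 4 after LPS had a mitochondrial share of 1.42% of counts against 0.880 to 0.961% in the others, with mt-Nd2 at 782 CPM (504 to 545) and mt-Nd4 at 1473 CPM (1039 to 1111), and Cox7a1 at 0.808 CPM (1.14 to 1.18). Untreated WT library 1 had mt-Nd2 at 712 CPM (496 to 511), mt-Co2 at 1.53 CPM (0.824 to 0.905), mt-Co3 at 0.743 CPM (0.233 to 0.286) and Cox5a at 123 CPM (161 to 167). KO library 2 after LPS had a log2 ratio of mitochondrial to nuclear counts of 1.51 (1.80 to 1.83) and mt-Cytb at 2609 CPM (3183 to 3271). KO library 3 after LPS had mt-Atp6 at 0.418 CPM (0.742 to 0.808), dCIS library 3 after LPS had Cox5a at 202 CPM (186 to 188), and untreated WT library 4 had Atp5b at 436 CPM (480 to 489).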

How the results depend on the processing

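Under alternatives, the 110 gene results named as called kept direction and call in 1833 cases, lost the call in 253 and reversed in 46, all 46 with total counts and no scaling (an alternative chosen after seeing the data, as were the length offsets). The reversed log2 changes after LPS were, in WT, Atp5a1 -0.35, Atp5b -0.28, Atp5f1 -0.16, Cox4i1 -0.52, Cox5a -0.19, Cox6a1 -0.46, Cox6b1 -0.37, Cox6c -0.44, Cox7a2 -0.35, Cox8a -0.48, Ndufa1 -0.47, Ndufs3 -0.27, Sdhd -0.52, Slc25a5 -0.29, Uqcrc2 -0.47, Uqcrfs1 -0.12 and Uqcrh -0.38. In KO they were Atp5a1 -0.41, Atp5b -0.33, Atp5f1 -0.19, Cox4i1 -0.46, Cox5a -0.21, Cox6a1 -0.47, Cox6b1 -0.44, Cox6c -0.29, Cox7a2 -0.25, Cox8a -0.43, Ndufa1 -0.45, Ndufa4 -0.48, Ndufs3 -0.31, Sdhd -0.56, Slc25a5 -0.36, Uqcrc2 -0.46, Uqcrfs1 -0.016 and Uqcrh -0.22. In dCIS they were Atp5a1 -0.40, Atp5b -0.38, Atp5f1 -0.31, Cox6b1 -0.42, Mrpl30 -0.0015, Ndufs3 -0.34, Ndufs4 -0.38, Slc25a5 -0.32, Uqcrc2 -0.39, Uqcrfs1 -0.33 and mt-Cytb -0.22. The cause was not tested.

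Called nuclear subunits after LPS numbered 69 in WT, 67 in KO and 74 in dCIS with total counts, 15 in WT without the count filter, and 21 in dCIS on the compared groups alone. Called mitochondrial genes after LPS numbered 6 in WT and 6 in KO with total counts, 1 and 1 without the filter, 5 in WT with a replicate block within the genotype, and 3, 2 and 7 in WT, KO and dCIS with that block and the length offset. For KO against WT untreated, nuclear calls were 42 with a replicate block over all groups, 52 on the compared groups alone, 15 without both KO libraries numbered 2 and 1 with the length offset; mitochondrial calls were 2 with RLE size factors, 6 without the filter, 3 with the block, 3 on the compared groups alone, 2 without both KO libraries numbered 2 and 3 with DESeq2. For KO against WT after LPS, nuclear calls were 10 without the filter, 19 with the block, 44 on the compared groups alone, 1 without both KO libraries numbered 2, 9 with total counts, 1 with the length offset and 16 with DESeq2, and mitochondrial calls 2 without the filter and 1 on the compared groups alone. For dCIS against WT after LPS, nuclear calls were 6 without the filter, 0 on the compared groups alone, 0 without dCIS libraries 3 and 4, 0 with the length offset and 8 with DESeq2, and mitochondrial calls 2 without the filter. The dCIS difference in response gave 1 nuclear and 1 mitochondrial call without the filter. The causes were not tested. Replicate numbers across genotypes are shared only as numbers.

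Leaving out single libraries gave 21 to 25 nuclear calls after LPS in WT, 23 to 27 in KO and 29 to 44 in dCIS, and 0 to 1, 0 to 0 and 3 to 5 mitochondrial ones. It gave 1 to 22 nuclear and 0 to 1 mitochondrial calls for KO against WT untreated, 1 to 5 and 0 to 0 after LPS, and 0 to 3 and 0 to 1 for dCIS against WT after LPS. The LPS change of the log2 ratio ranged from -0.10 to 0.25 in WT, -0.13 to -0.01 in KO and 0.33 to 0.92 in dCIS. Depth limits mt-Atp8, mt-Nd4l and the isoforms with few counts.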
